A study of Homo sapiens with 4 samples.

Results

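The long non-coding RNA (lncRNA) genes of the major histocompatibility complex (MHC) were examined in HUH7, an established cell line from a human hepatocellular carcinoma. Members were all genes of type lncRNA whose model in the GENCODE annotation, release 44, lay wholly within chr6:28500000-33500000 on the human build GRCh37, and that had at least 1 transcript in the deposited expression table. This rule gave 44 genes with 72 transcripts, out of 11466 genes of the table that could be matched to the annotation. The annotation holds 91 lncRNA genes in that window, and no lncRNA gene of the table crossed a border of the window. The study sequenced RNA of untreated HUH7 cells grown in DMEM with fetal bovine serum, from strand-specific libraries made after ribosomal RNA depletion with Ribo-Zero, although polyA RNA is entered as the molecule in the labels. There were 4 libraries in 1 group, here replicates 1 to 4, with no treatment, no control and no second cell line. The letters H and L in the titles are internal names of the submitters and entered no comparison. HUH7 is 1 line from 1 tumour, so the values describe that line only. Separate cultures are not named in the labels. The p-values therefore rest on a spread between libraries that may be only technical.

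The MHC on the short arm of human chromosome 6 holds the HLA genes. Class I molecules present peptides from inside the cell on almost all nucleated cells, class II molecules present peptides from outside on professional antigen-presenting cells, and the class III stretch between them codes for complement components and many genes with other tasks. The region is among the most gene-dense and most polymorphic of the genome. Its non-coding genes include a series named HLA complex group (HCG, or HCP for a pseudogene name), antisense genes named after the coding gene on the other strand, divergent transcripts that start beside a coding promoter, and intergenic genes named LINC.

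The table gives FPKM, in which the fragments of a transcript are divided by its length and by the depth of the library, and the values of all transcripts of a gene were added. Only non-coding transcripts were in the reference that reads were aligned to, so FPKM is a share of the reads placed on non-coding RNA. The summed FPKM of a library was between 1755972 and 1965229, and the step size of low values gave an estimated 4520000 to 5010000 fragments per library. A gene was compared with 5 FPKM, the level that the study used to call a transcript expressed, by limma's one-sample moderated test on log2(FPKM + 1). The difference from log2(5 + 1) is called the log2 difference below. It is on the log2(FPKM + 1) scale, which understates the distance of low genes. The labelled cell type was looked for in markers that the table holds. Of 8 lncRNA genes known from hepatocytes and liver cancer, 7 were in the table and 5 were above 5 FPKM, among them HULC at 693 ± 64.8 FPKM (SD, n = 4) and LINC00261 at 377 ± 27.7 FPKM, while FAM99A and FAM99B were at 0.237 and 0.41 FPKM. Of the lymphoid and myeloid list 3 of 5 genes were also above 5 FPKM, with a summed level of 393 to 489 FPKM. These were LINC00426 at 328 FPKM, PCED1B-AS1 at 101 FPKM and LINC00861 at 11.1 FPKM, while the host genes MIR155HG and MIR142HG were at 0 and at 0.035 ± 0.07 FPKM. All 4 genes found of the stromal and endothelial list were above 5 FPKM, with a summed level of 234 to 287 FPKM. The part of other cell types in the levels of the MHC genes was not tested.

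The sequences shown here are of 2 kinds, those that set a transcript apart from the rest of the genome and those that 2 genes share. The first pair are stretches in which each run of 24 bases occurs once in the genome, from TSBP1-AS1 (chr6:32231518-32231607, plus strand) and HCG18 (chr6:30294159-30294248, minus strand). The last pair are the first 90 bases of C4A-AS1 (chr6:31971209-31971298, minus strand) and C4B-AS1 (chr6:32003946-32004035, minus strand), 2 genes that share their whole sequence. All are written 5′ to 3′ on the strand of the gene, from the GRCh37 genome, with no base in capitals.
TSBP1-AS1 single-copy stretch: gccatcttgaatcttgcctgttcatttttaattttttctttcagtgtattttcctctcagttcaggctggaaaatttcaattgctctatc
HCG18 single-copy stretch: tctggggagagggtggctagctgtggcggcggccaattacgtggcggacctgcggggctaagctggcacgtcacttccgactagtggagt
C4A-AS1 start: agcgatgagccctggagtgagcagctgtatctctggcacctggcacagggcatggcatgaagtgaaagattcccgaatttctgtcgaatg
C4B-AS1 start: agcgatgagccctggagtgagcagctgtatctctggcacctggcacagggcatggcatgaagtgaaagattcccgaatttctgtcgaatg

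The MHC lncRNA genes ranged from 0 to 2302 FPKM, and 1 gene held about as much of the signal as all others together. Their summed level was 4087, 5181, 4855 and 3933 FPKM in replicates 1 to 4, which was 0.203% to 0.295% of the summed FPKM of a library. TSBP1-AS1 alone gave 44.1% to 56.3% of the member sum. Without it the sum was 2170, 2362, 2119 and 2198 FPKM, so most of the difference between the libraries lay in that gene. In all, 22 of the 44 genes had a mean above 5 FPKM (50.0%), against 34.6% of all genes of the table and 33.2% of the lncRNA genes outside the window. A mean above 100 FPKM was seen for 10 genes (22.7%), against 8.45% of all genes and 7.83% of the lncRNA genes outside. All 4 libraries were above 5 FPKM in 21 genes (47.7%), against 31.5% of all genes and 30.2% of the lncRNA genes outside. Only 6 genes (13.6%) were listed at 0 in all libraries, against 34.9% of all genes and 36.1% of lncRNA genes outside.

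Of the 44 genes, 36 had a mean of at least 0.1 FPKM and were tested. The test placed 21 above 5 FPKM (58.3%), where it placed 50.3% of all 7124 genes tested and 49.2% of lncRNA genes outside the window. It placed 12 below (33.3%, against 38.5% of all genes and 39.5% of lncRNA genes outside), and 3 could not be placed (8.33%, against 11.2%), namely SAPCD1-AS1, ZBED9-AS1 and HCG17. The median level of the tested members was 19.5 FPKM, against 7.61 FPKM over all genes tested, and the median log2 difference was 1.76 against 0.47. The libraries resembled each other over these genes, with Pearson's r of log values between 0.98 and 0.99 across the 36 tested genes, which are not independent replicates. Among genes above 5 FPKM the median coefficient of variation (CV) between libraries was 13.8% for the members and 15.4% for all genes.

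**Figure D1:**
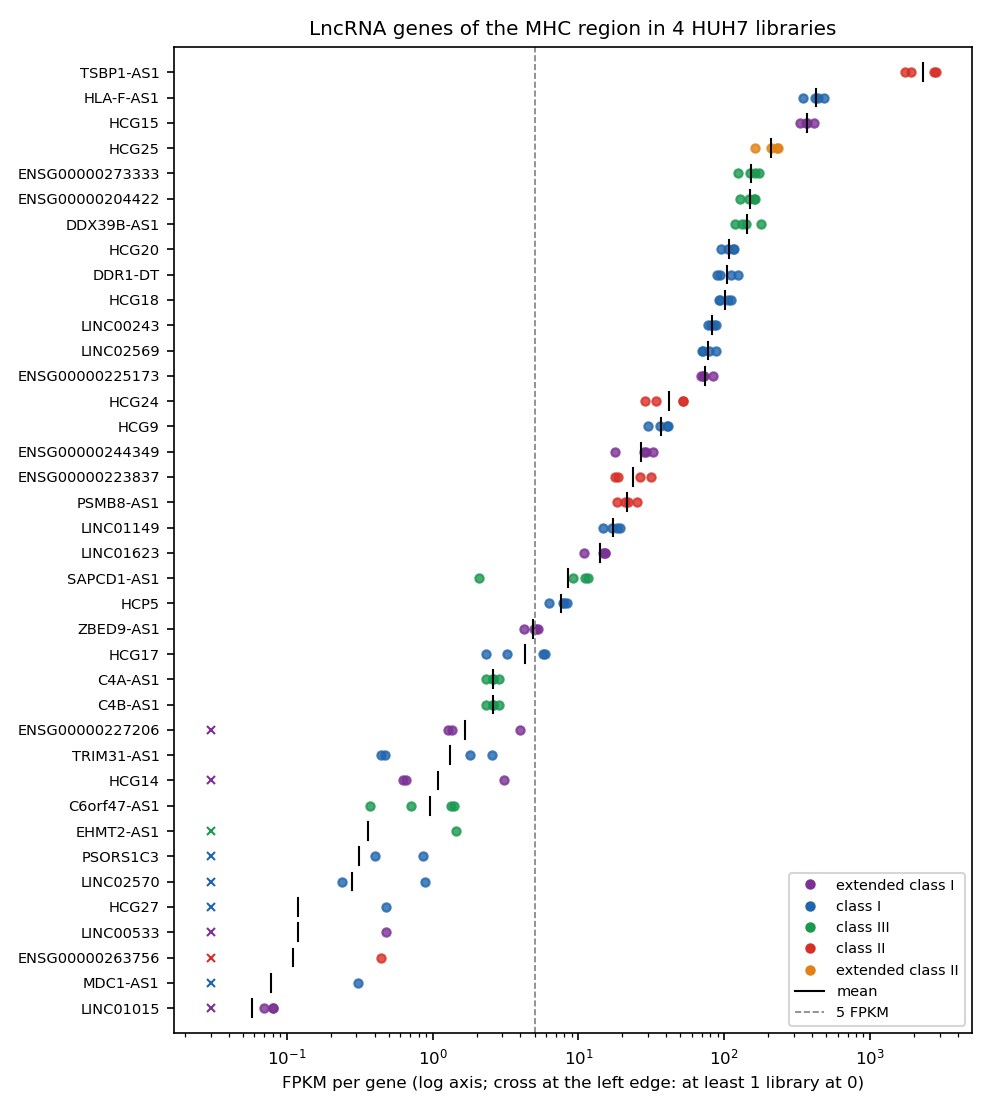
FPKM (log axis) of the 38 MHC lncRNA genes above 0 in at least 1 library; each point is 1 of 4 libraries, coloured by subregion, the black tick is the mean, the dashed line is 5 FPKM, and a cross at the left edge stands for 1 or more libraries at 0. TSBP1-AS1 lies apart at the top, 22 genes have a mean above the line, and the libraries of SAPCD1-AS1, ZBED9-AS1 and HCG17 lie on both sides of it.

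TSBP1-AS1 (ENSG00000225914, chr6:32222417-32375540, plus strand) is named for TSBP1, a coding gene on the other strand. The gene model runs across TSBP1 and BTNL2, but its measured signal lay in a transcript at chr6:32223488-32233615 that overlaps neither. The gene was at 1918, 2819, 2735 and 1735 FPKM in replicates 1 to 4. Replicates 2 and 3 were high and replicates 1 and 4 low, and all 4 were above every library of every other member. The mean was 2302 ± 555 FPKM, with a log2 difference from 5 FPKM of 8.55 ± 0.12 (SE, limma, adjusted p = 5.16e-17). This corresponds to an estimated 29278 to 46277 fragments per library, or 0.586% to 0.952% of the estimated fragments. Counting error would give a CV of 0.519%, and the observed CV was 24.1%, so the libraries differed by far more than the counting error. That transcript has 3458 nt and 2 exons, and the other transcript, farther along the model, was at 0.

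The transcript of TSBP1-AS1 holds 2 unlike stretches, divided here at nt 1800 after the copy numbers were seen. In its first 1800 nt the median run of 24 bases occurred 2 times in the genome, and 24.6% of the runs occurred 10 times or more. From nt 1801 on the median was 6846 copies, and 87.8% of the runs occurred 10 times or more. The single-copy stretch printed above lies upstream of it. Over the whole transcript 54.6% of the runs occurred at least 10 times, the highest share of any member. By blastn, 51.2% of its length was shared at 95% identity or more, over at least 50 nt, with 96 other genes, and 44.8% with coding transcripts, of which PARP15 shared the most (29.2%). FPKM gives no position within a transcript, so it cannot be told apart whether the reads came from the first or the second stretch.

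**Figure D2:**
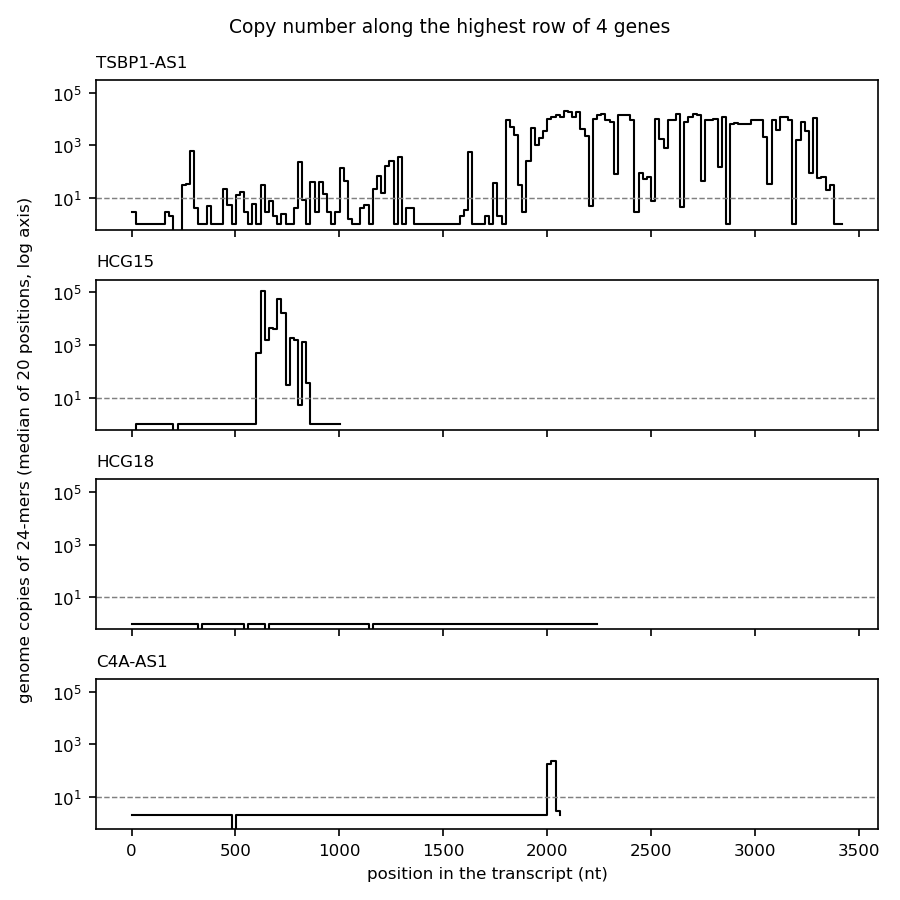
Number of copies in the GRCh37 genome (log axis, median over 20 positions) of each run of 24 bases along the highest transcript of TSBP1-AS1, HCG15, HCG18 and C4A-AS1, by position in nt; the dashed line is 10 copies, and gaps under the axis are runs across exon junctions. TSBP1-AS1 is repeated from nt 1801 on, HCG15 in 1 block, C4A-AS1 mostly has 2 copies, and HCG18 has 1 copy throughout.

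Along the MHC, each subregion with more than 1 gene held genes on both sides of 5 FPKM. Of 11 genes in the extended class I region, which also holds olfactory receptor and zinc finger genes, 4 were called above and 3 below, with a median of 1.66 FPKM and the highest level in HCG15. The class I region had 17 genes, 9 called above and 4 below, with a median of 7.62 FPKM. Of the 8 class III genes 3 were called above and 4 below, and of the 7 class II genes 4 were called above and 1 below, 2 being at 0. HCG25 was the only gene in extended class II. The class II genes gave 52.9% of the member sum, nearly all from TSBP1-AS1, and the class I genes gave 21.4%. Not tested were 3 genes of extended class I, 3 of class I and 2 of class II. Over all genes tested, 50.3% were called above and 38.5% below. The counts by subregion are of few genes, and the subregions were not compared by a test.

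**Figure D3:**
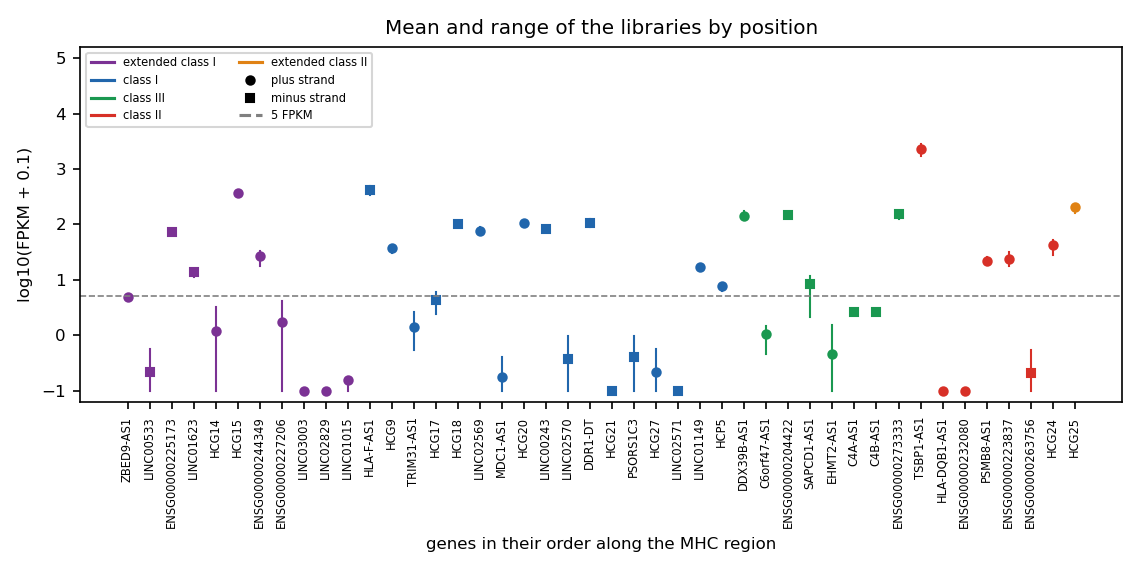
Mean (symbol) and lowest to highest library (line) of the 44 MHC lncRNA genes on the scale log10(FPKM + 0.1), in their order along the region; colour gives the subregion, circles are genes on the plus strand, squares on the minus strand, and the dashed line is 5 FPKM. Every subregion with more than 1 gene has symbols on both sides of the line, and the 6 genes at 0 lie at the bottom.

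Of the 11 HLA complex group genes 10 were tested. The test called 7 above 5 FPKM, where it called 50.3% of all genes tested, and placed HCG14 and HCG27 below. HCG17 could not be placed and HCG21 was at 0, and the median of the 11 was 37.1 FPKM. HCG15 (chr6:28953980-28955261) was at 332, 414, 371 and 365 FPKM, with a mean of 371 ± 34.0 FPKM and a log2 difference of 5.95 ± 0.08 (adjusted p = 3.19e-17). Its libraries lay close together, and its 1 transcript of 1032 nt was single-copy except for 1 block.

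HCG25 (chr6:33217311-33222944) lies across VPS52, a gene of a tethering complex at the Golgi, on the opposite strand, and 155 nt of its highest transcript are antisense to VPS52 exons. It was at 208, 229, 235 and 163 FPKM, with replicate 4 lowest, and at 208.6 ± 32.7 FPKM on average (log2 difference 5.11 ± 0.09, adjusted p = 5.53e-16). HCG20 (chr6:30711567-30760027) was at 106, 117, 115 and 94.6 FPKM. Its highest transcript, with 98.0% of the sum, starts inside the gene model and overlaps no coding gene. HCG24 (chr6:33112560-33115544) was at 28.5, 52.4, 52.2 and 34.0 FPKM, high in replicates 2 and 3, and its CV of 29.6% was well above its counting error of 8.86%. HCG9 (chr6:29942889-29946187) was at 30.1, 41.3, 40.5 and 36.5 FPKM.

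HCP5 (chr6:31430947-31446713) lies between MICA and MICB, which code for stress-induced ligands of natural killer cells. It was at 8.40, 7.97, 7.82 and 6.30 FPKM, all 4 libraries above 5 FPKM, with a mean of 7.62 ± 0.915 FPKM. The log2 difference was 0.52 ± 0.18 (adjusted p = 0.0137), and without replicate 1 it was 0.47 and no longer called (adjusted p = 0.0548). In another setting every library was brought to the same summed FPKM, lower than its own, while the level of 5 FPKM was kept. By construction the 22 members with a positive log2 difference then all moved down, by a median shift of -0.90, and HCP5 came to -0.26. When libraries were instead scaled by their median ratio to the geometric mean of all libraries, HCP5 was at 0.51 (limma, adjusted p = 0.00863). HCP5 was thus the lowest of the genes called above, and the only one whose mean was under 10 FPKM.

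HCG18 (chr6:30254467-30295159, minus strand), whose highest transcript starts 222 bp from the start of TRIM39, a gene of an E3 ubiquitin ligase, held a steady sum over unsteady transcripts. The gene was at 111, 106, 92.5 and 94.1 FPKM, with a mean of 101 ± 9.13 FPKM and a log2 difference of 4.08 ± 0.09 (adjusted p = 2.39e-15). None of its highest transcript occurred 10 times or more in the genome, and 223 nt are antisense to TRIM39 exons. All 8 transcripts of HCG18 have another version in the annotation than in the table, so these traits are those of the annotation's version. Its 8 transcripts shared out that sum differently from library to library. ENST00000438412 held 44.3% to 54.6% of it, at 55.3, 58.0, 41.0 and 48.7 FPKM. ENST00000449544 was at 19.4, 15.9, 4.84 and 1.96 FPKM, while ENST00000426882 was at 6.74, 5.64, 9.52 and 14.1 FPKM. ENST00000444126 was at 10.2 FPKM in replicate 2 and at 0 in the other libraries, and ENST00000454129 was at 0 in replicate 2 alone. RSEM divides reads that match several isoforms by estimation, so these values depend on each other, and reads of single isoforms cannot be told apart here. Of the 10 members above 5 FPKM with several transcripts, the other 9 had over 90% of their sum in 1 transcript.

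**Figure D4:**
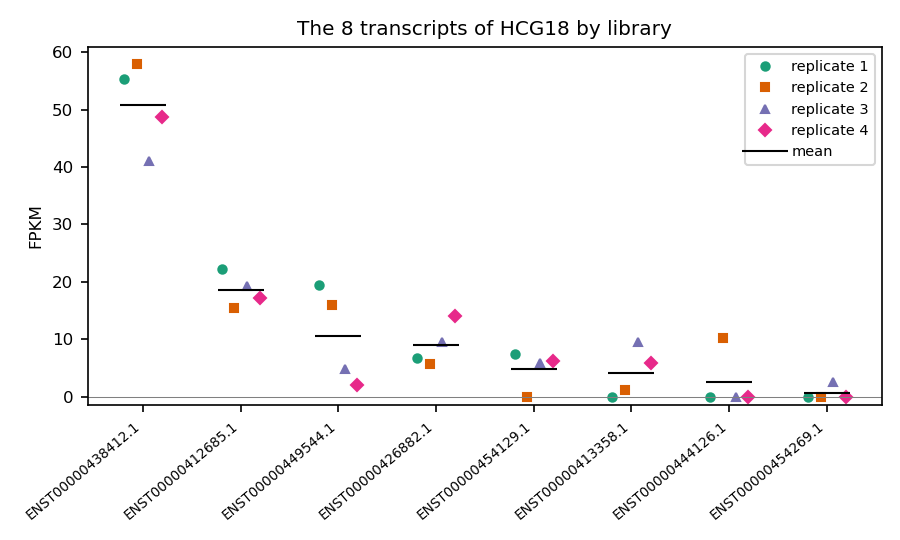
FPKM (linear axis) of the 8 HCG18 transcripts in 4 libraries, each symbol being 1 library and each tick the mean. The highest transcript holds about 50.3% of the gene's mean, and several of the lower ones are present in some libraries and at 0 in others.

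HCG17 (chr6:30201816-30293911), which shares 126 exonic bases on its strand with HCG18, was at 5.72, 3.24, 2.34 and 5.87 FPKM. Replicates 1 and 4 lay above 5 FPKM and replicates 2 and 3 below, and the log2 difference was -0.25 ± 0.24 (adjusted p = 0.332). With its highest transcript alone it was called below (-0.57, adjusted p = 0.0295). HCG14 at 0.66, 3.09, 0.63 and 0 FPKM and HCG27 at 0, 0, 0.48 and 0 FPKM were both called below. HCG21 was listed at 0, where 1 fragment would have been worth about 0.399 FPKM.

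Of 14 antisense or divergent genes, 5 were called above 5 FPKM, 5 below and 2 could not be placed, with a median of 3.75 FPKM. The test called 50.3% of all genes tested above and 38.5% below. The remaining 2 of the 14 genes were not tested. After TSBP1-AS1 the highest was HLA-F-AS1 (chr6:29694378-29716826, minus strand), which lies across HLA-F, a non-classical class I gene. It was at 441, 417, 345 and 486 FPKM, with a mean of 422 ± 58.8 FPKM (log2 difference 6.13 ± 0.09, adjusted p = 5.78e-17), and replicate 3 was lowest. In its highest transcript 516 of 1905 nt are antisense to HLA-F exons. That transcript, with 99.8% of the sum, has another version in the annotation than in the table, and with only transcripts of the same version HLA-F-AS1 would be below 5 FPKM (log2 difference -1.83). Among genes called above, the highest transcripts of HCG18, ENSG00000273333, ENSG00000225173, HCG9, PSMB8-AS1 and HCP5 also differ in version. With only same-version transcripts those genes were not tested. The lengths, starts, overlaps and repeats given for all these transcripts are those of the annotation's version. Reads of HLA-F messenger RNA would match the antisense strand only, but no source used here states how strand was handled when reads were aligned, and the part of HLA-F reads was not tested.

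DDX39B-AS1 (chr6:31510081-31510915) has its highest transcript starting 75 bp from the start of DDX39B, which codes for an RNA helicase of splicing and export. That transcript overlaps DDX39B on the opposite strand, with 24 nt antisense to its exons. DDX39B-AS1 was at 141, 177, 133 and 118 FPKM, with replicate 2 highest and a mean of 142 ± 25.3 FPKM (log2 difference 4.56 ± 0.10, adjusted p = 2.56e-15). DDR1-DT (chr6:30834759-30843695) starts 503 bp from the start of DDR1, a collagen receptor tyrosine kinase, and was at 93.5, 124, 111 and 89.6 FPKM. PSMB8-AS1 (chr6:32811855-32814277) overlaps 2 genes on the opposite strand. These are PSMB8, a subunit of the immunoproteasome, and TAP1, a subunit of the peptide transporter of class I presentation. The highest transcript starts 593 bp from the start of PSMB8. PSMB8-AS1 was at 22.02, 25.3, 18.3 and 20.96 FPKM, with a mean of 21.7 ± 2.89 FPKM (log2 difference 1.91 ± 0.13, adjusted p = 2.56e-09). In its highest transcript 139 of 1272 nt lie on PSMB9 exons of the same strand and 463 nt are antisense to TAP1 exons. By their highest transcripts, 5 members started within 1 kb of a coding gene's start on the other strand, and 4 of them had a mean above 5 FPKM, the exception being HCG17. Of lncRNA genes outside the window, 52.0% of 1160 with such a start and 30.9% of 9447 others had a mean above 5 FPKM.

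SAPCD1-AS1 (chr6:31732087-31733365) was at 11.6, 9.18, 11.1 and 2.07 FPKM. Replicates 1 to 3 were above 5 FPKM and replicate 4 was below, at an estimated 3.95 fragments against 17.0 to 19.96 in the others. The CV was 51.8% and the counting error 25.6%. The gene could not be placed (log2 difference 0.47 ± 0.29, adjusted p = 0.139), and without replicate 4 it was called above (0.95, adjusted p = 0.000415). ZBED9-AS1 (chr6:28555155-28559524) was the member nearest to 5 FPKM from below, at 5.15, 4.96, 5.26 and 4.25 FPKM (log2 difference -0.03 ± 0.20, adjusted p = 0.901).

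C4A-AS1 (chr6:31967753-31971298) and C4B-AS1 (chr6:32000490-32004035) lie antisense to C4A and C4B, the duplicated genes of complement component 4, which the liver makes in large amounts. Both transcripts are 2095 nt long, with 0 differing bases, as the printed starts show for the first 90. Each was listed at 2.58, 2.86, 2.33 and 2.58 FPKM, the same value for both genes in every library, so reads of the 2 copies cannot be told apart. Each alone was called below 5 FPKM (log2 difference -0.74 ± 0.21, adjusted p = 0.00484). Their sum was 5.16, 5.72, 4.66 and 5.16 FPKM, above 5 in 3 of 4 libraries, and could not be placed (log2 difference 0.04, adjusted p = 0.854). In each, 266 nt are antisense to C4 exons. The other antisense genes were low. TRIM31-AS1 was at 0.47, 0.44, 1.80 and 2.54 FPKM. C6orf47-AS1, all 673 nt of which are antisense to C6orf47, was at 0.37, 1.39, 0.71 and 1.34 FPKM. EHMT2-AS1, across the gene of a histone methyltransferase, was above 0 in replicate 3 alone. MDC1-AS1, antisense to a mediator of the DNA damage checkpoint, was at 0.31 FPKM in replicate 2 and at 0 in the rest.

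The class II genes next to HLA-DQ were at 0. HLA-DQB1-AS1, antisense to the beta chain gene of HLA-DQ, was listed at 0 in all libraries, where 1 fragment would have been worth about 0.444 FPKM, and so was ENSG00000232080 in the same neighbourhood. The non-coding transcript of HLA-DQB1 itself was at 0 too, and that of CIITA, the master regulator of class II genes, was at 0.148 ± 0.163 FPKM. These were the only 2 of 27 antigen presentation genes with a transcript in the table, since coding transcripts were left out of it. Of 9 members whose highest transcript lay within 50 kb of a coding HLA gene, 5 had a mean above 5 FPKM, against 17 of 35 members farther away, and this was not tested.

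Of the 10 LINC genes, 4 were called above 5 FPKM, LINC00533 and LINC02570 below, and 4 were not tested, of which 3 were at 0. The shares over all genes tested were 50.3% above and 38.5% below. LINC00243 (chr6:30765988-30798436) was at 81.2, 87.9, 84.6 and 77.1 FPKM, the steadiest of the members above 5 FPKM with a CV of 5.55%, against a counting error of 3.58%. LINC02569 (chr6:30484043-30486994), at 22072 bp from HLA-E, was at 70.2, 78.7, 71.8 and 88.1 FPKM. LINC01149 (chr6:31409444-31414750) was at 17.1, 19.3, 18.3 and 14.7 FPKM, and LINC01623 (chr6:28827402-28832407) at 10.97, 15.2, 14.7 and 15.1 FPKM. Both were in all libraries above 5 FPKM. PSORS1C3, from the psoriasis susceptibility region and across POU5F1, the gene of the pluripotency factor OCT4, was at 0.86, 0.40, 0 and 0 FPKM and was called below.

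Among the 8 genes without a symbol, 5 were called above, 2 below and 1 was not tested, where 50.3% of all genes tested were called above. The highest 2 lie on coding exons of their own strand. ENSG00000273333 (chr6:32152510-32153659) was at 162, 149, 123 and 173 FPKM, and all 662 nt of it lie on exons of PBX2, a homeobox gene. ENSG00000204422 (chr6:31654739-31681849) was at 159, 128, 148 and 162 FPKM, and 1795 of its 2332 nt lie on exons of ABHD16A, a lipid hydrolase gene. Reads of the coding RNA and of the lncRNA cannot be told apart over these bases, since the coding transcripts were not in the reference. When transcripts on coding exons of the same strand were left out, 18 of 33 members were called above 5 FPKM. ENSG00000225173 (chr6:28805017-28806835) was at 71.2, 83.2, 69.7 and 73.0 FPKM. ENSG00000244349 (chr6:28954577-28956313), which shares 80 exonic bases with HCG15 on its strand, was at 27.95, 29.0, 17.8 and 32.6 FPKM. ENSG00000223837 (chr6:32938009-32938663), inside BRD2 on the same strand but off its exons, was at 17.7, 26.3, 18.7 and 31.7 FPKM.

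The order of the levels was settled by the test in no place, and the ranges of neighbours lay apart in few. Pairs were formed in the order of their means, so the sign of a ratio gives no further support for that order. Among the 10 highest genes, 3 of 9 neighbouring pairs had ranges that did not overlap. TSBP1-AS1 was above HLA-F-AS1 by a log2 ratio of 2.43 ± 0.54 (SD, n = 4), HCG15 above HCG25 by 0.84 ± 0.23, and DDX39B-AS1 above HCG20 by 0.38 ± 0.17, each in 4 of 4 libraries. The exact two-sided sign-flip permutation test cannot go below 0.125 with 4 libraries, which is what these pairs gave (adjusted p = 0.375 over 9 pairs). For HLA-F-AS1 and HCG15 the log2 ratio was 0.18 ± 0.27, and for DDR1-DT and HCG18 it was 0.04 ± 0.25, so these neighbours did not differ beyond their spread as gene sums. With the highest transcript of each gene alone, DDR1-DT was above HCG18 by 1.04 ± 0.30 (exact p = 0.125, the lowest possible), and DDX39B-AS1 was above HCG20 by 0.33 ± 0.27 (exact p = 0.25) with ranges that overlapped. Farther down, the ranges of HCG18 and LINC00243 and those of ENSG00000225173 and HCG24 lay apart, and from HCG24 down to HCP5 each gene overlapped the next.

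Members of high level held more repeated sequence than members of low level. Among the 22 genes with a mean above 5 FPKM, 13 had at least 10% of the 24-base runs of their highest transcript at 10 or more genome copies, against 1 of the 22 others, and the medians were 12.3% and 0%. The one gene among the low ones was ENSG00000232080, at 0 FPKM. After TSBP1-AS1 the highest shares were 32.5% in DDX39B-AS1, 29.8% in DDR1-DT, 23.1% in LINC02569 and 22.4% in HCG15. High members without any such run were ENSG00000204422, HCG18, ENSG00000244349, ENSG00000223837 and SAPCD1-AS1. The highest transcripts of members above 5 FPKM were also longer, with a median of 1104 nt against 639 nt, while the GC content was 48.3% and 48.8%.

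**Figure D5:**
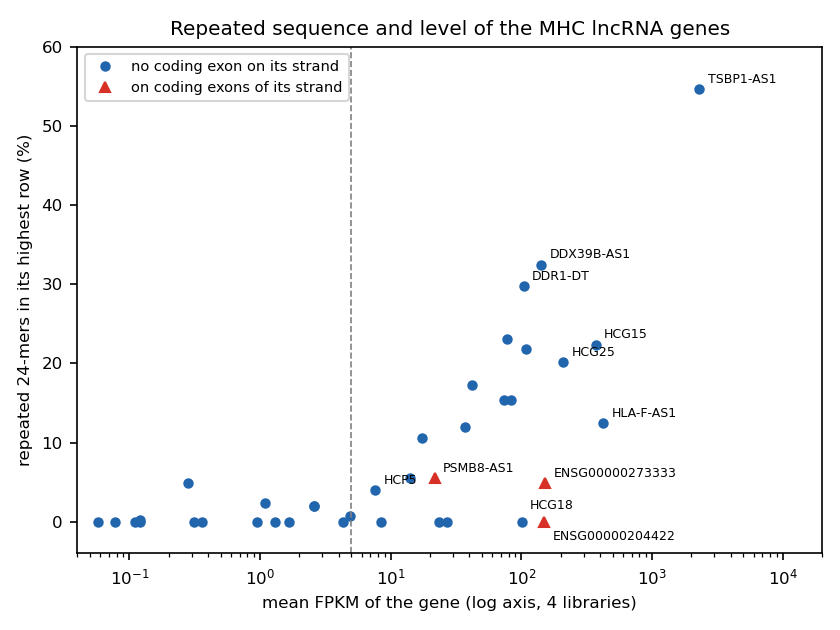
Share of 24-base runs with at least 10 genome copies in the highest transcript of each MHC lncRNA gene above 0 (y axis, %) by the mean FPKM of the gene (log axis); triangles are genes with bases on coding exons of their strand, circles are the other genes, and the dashed line is 5 FPKM. All genes with at least 10% repeated sequence lie to the right of the line, and HCG18 and ENSG00000204422 are at 0% near 100 FPKM.

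The same was seen outside the MHC. Of the other lncRNA genes, 6.52% held at least 10% repeated sequence at 0.1 to 5 FPKM, 27.9% at 5 to 20 FPKM, 57.4% at 20 to 100 FPKM and 80.5% above 100 FPKM. Above 5 FPKM the share was 52.0% of 3500 other genes and 59.1% of the 22 members. The calls divided likewise. Of the members with less than 10% repeated sequence, 8 of 23 were called above 5 FPKM (34.8%, against 31.8% of 4403 such genes outside the window), and of those with 10% or more, 13 of 13 (against 87.4% of 2009). Within each class the share of members was near that of other lncRNA genes, and the part of reads from other copies of the repeats was not tested.

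A library pattern that was also common over the whole table was more frequent among the repeat-rich members. In 9 of the 13 members above 5 FPKM with at least 10% repeated sequence, replicates 2 and 3 were both above replicates 1 and 4, as in TSBP1-AS1, HCG15, HCG25, HCG20, DDR1-DT, LINC00243, HCG24, HCG9 and LINC01149. This was so in 0 of the 9 members with less. Replicates 2 and 3 were both below in ENSG00000273333 and ENSG00000204422 and, among the repeat-rich genes, in HLA-F-AS1. Outside the window, replicates 2 and 3 were both the higher ones in 56.5% of 1819 repeat-rich lncRNA genes and in 31.7% of 1680 others. Of all 3969 genes with a mean above 5 FPKM it was 42.7%, and of the 22 members 40.9%. Over 5620 genes above 0 in all libraries, the median ratio to the geometric mean of the libraries was 0.961, 1.12, 1.02 and 0.924 in replicates 1 to 4. Replicates 2 and 3 were thus higher by this median. Their summed FPKM over the whole table (1755972 and 1904926) was lower than that of replicates 1 and 4 (1965229 and 1935247). The part of the higher median ratio in the pattern was not tested. The pattern was noticed in TSBP1-AS1 and counted afterwards, so it is a description, and it does not follow the letters H and L of the titles.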

How the data were processed

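RNA of 4 libraries of HUH7 cells was measured by strand-specific sequencing. Per the labels and the study's methods, the authors aligned reads to non-coding transcripts of Ensembl release 68 on GRCh37 (hg19) with Bowtie 1.01 and RSEM 1.2.3 and deposited FPKM values with 2 decimals for 19835 transcripts. Counts were not used here, and 0 columns of the table were left unused. Of these transcripts, 18373 matched GENCODE release 44 mapped to GRCh37, 11443 with the same version; the others were not assigned to genes, and whether they hold copies of these genes from other MHC haplotypes was not tested. FPKM were summed per gene. Genes with a mean of at least 0.1 FPKM (7124) were tested with limma 3.58.1 (R 4.3.3, trend, two-sided) on log2(FPKM + 1) against 5 FPKM, with Benjamini-Hochberg adjustment over all of them at 0.05. The test was checked on simulated data.

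Depth was estimated from the FPKM steps of transcripts with 1 version and 1 row per gene, at length minus 80 nt. Between 79.5% and 81.4% of 794 to 850 low values per library lay within 0.05 of a whole fragment. Counting errors rest on these estimates and cover counting only. Copies of each run of 24 bases were counted in GRCh37 on both strands, at every position for members and at 1 in 16 for other genes. Shared sequence came from blastn 2.17.0 and exon overlap from bedtools 2.31.1.

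Subregions ended at MOG, MICB and NOTCH4 and began at COL11A2 (positions 29640149, 31478901, 32191844 and 33130458). The genes given values are the 20 of highest mean, the members of the named series, those next to 5 FPKM and those with 1 library apart. Further genes were named after their values were seen. The members and lists were chosen with earlier results of these data known. Alternatives were other pseudocounts, filters, thresholds and scalings, the highest or same-version transcript, and leaving out each library. Some sequences and 1 neighbouring gene are not reported here.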

Additional observations from a re-analysis of the deposited data

Results flagged for a closer look

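In 7 members 1 library stood apart from the other 3, as measured by the gap of the farthest library divided by the range over all 4 (Dixon's ratio, set against its 95% critical value for 4 libraries). Chance sets a library apart in about 1 of 20 groups, and 38 members were above 0. For LINC01623 the ratio was 0.881, with replicate 1 at 10.97 FPKM and the others at 14.68 to 15.18 FPKM, all above 5 FPKM. For LINC01015 it was 0.875, with replicate 1 at 0 and the others at 0.07 to 0.08 FPKM. In 5 genes the ratio was 1.0 because all but 1 library were at 0. EHMT2-AS1 was at 1.44 FPKM and HCG27 at 0.48 FPKM in replicate 3 alone, and LINC00533 was at 0.48 FPKM and ENSG00000263756 at 0.44 FPKM in replicate 1 alone. MDC1-AS1 was at 0.31 FPKM in replicate 2 alone. For LINC00533, ENSG00000263756 and MDC1-AS1 these values came to 0.992, 0.988 and 0.991 estimated fragments, that is to about 1 fragment each.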

How the results depend on the processing

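No paired analysis was possible because there was 1 group. Of the 36 tested genes, 21 were called above 5 FPKM and 12 below. With each library left out in turn these counts were 20 to 22 and 10 to 13. Across the other alternatives the count above was 14 (same-version transcripts, 28 genes tested) to 26 (threshold of 1 FPKM), and at 1 FPKM only 6 were called below. Without genes of at least 10% repeated sequence, an alternative chosen after seeing the data, 8 of 23 were called above and 12 below. With C4A-AS1 and C4B-AS1 as 1 gene, also chosen after seeing the data, 21 were called above and 10 below. Directions turned for HLA-F-AS1 with same-version transcripts (-1.83), for SAPCD1-AS1 and HCP5 at a threshold of 10 FPKM (-0.41 and -0.36) and with libraries brought to the same sum (-0.27 and -0.26, a scaling that by construction shifted members above 5 FPKM by a median of -0.90), and for ZBED9-AS1 without replicate 4 (-0.0556 to 0.0291 over the libraries left out in turn). At 1 FPKM, by construction, the log2 difference was positive for ZBED9-AS1 (1.56), HCG17 (1.34), C4A-AS1 and C4B-AS1 (0.84 each), ENSG00000227206 (0.19) and TRIM31-AS1 (0.10). Log2 ratios of neighbours turned for ENSG00000273333 over ENSG00000204422 without replicate 2 or 4 (-0.0475 and -0.0048, up to 0.1148 without another), for DDR1-DT over HCG18 without replicate 2 or 3 (-0.018 and -0.0306, up to 0.1408), and for ENSG00000204422 over DDX39B-AS1 without replicate 4 (-0.0454, up to 0.2641). With the highest transcript alone, DDR1-DT over HCG18 moved to 1.04. Except where the setting is the cause by construction, the cause was not tested. Estimated depth limits genes under 1 FPKM, where most values rest on few fragments. FPKM hold no counts, so no count test was run, and strand was not given for the alignment.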
